A study of Mus musculus with 24 samples.

Results

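MC38 cells that carried a guide RNA against Ado were compared with MC38 cells that carried a control guide RNA, 1 h after the addition of TNF. The comparison used 8 of the 24 libraries of the series, 4 of genotype Ado KO and 4 of genotype control. It used 13272 of 15390 genes, those with a value of 0 or more on the log2 CPM scale in at least 4 of the 24 libraries. Values on this scale are tag counts scaled to a common library total and normalised by the authors, on a log2 scale. MC38 is a mouse colon carcinoma line, grown here in DMEM with 10 percent FCS. Each genotype was represented by 2 guide populations (control gRNA 1 and 2, Ado gRNA 1 and 2), and each population gave 2 libraries at 1 h. The untreated libraries (4 of each genotype) and those at TNF 6 h (4 of each) shared the estimate of the spread with the 1 h libraries and are used below for comparison. The labels do not say whether a guide population was a clone or a pool, how the guides were delivered or what the dose of TNF was. Libraries are named here by guide and replicate, so that library 2-1 is replicate 1 of guide 2. Whether replicates came from separate cultures is not labelled, so a p-value speaks of the spread among libraries, and that spread may be technical. The fitted correlation within a guide population was 0.0485, so the 4 libraries of a genotype counted almost as separate replicates. With 2 populations for each genotype, a genotype difference cannot be told apart from a difference between these populations.

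ADO is a dioxygenase that uses oxygen to oxidise thiols: the small molecule cysteamine, and cysteines at the N terminus of certain proteins such as regulators of G protein signalling. An oxidised N-terminal cysteine is arginylated and read by the Arg/N-degron pathway, which sends the protein to the proteasome. TNF binds receptors on the cell surface and activates NF-kB and MAP kinases, and messages for NF-kB inhibitors, chemokines and immediate-early transcription factors rise soon after.

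The libraries were made with a 3' tag method, in which 1 tag near the end of a message is counted. Depth estimated from the spacing of the lowest values was 4280000 to 5890000 tags for the 8 libraries at 1 h. Depth and the shares of summed CPM were taken from the normalised values and are approximate. The normalised columns are not plain scaled counts, so the spacing of low values may not give a library's own depth. Mitochondrially encoded messages made up 1.84 to 1.99% of the summed CPM in control libraries, 1.29 to 1.35% in 3 Ado KO libraries and 1.85% in Ado KO library 2-2. Small RNA genes made up 0.276 and 0.282% with control guide 1, 0.342 and 0.37% with control guide 2, and 0.368 to 0.451% in Ado KO libraries. On the first principal component of the 8 libraries, which held 22.2% of the variance, control 1-2 lay at -45.32 and control 1-1 at -25.13. Ado KO 2-2 lay at -2.03, beside control 2-1 at -2.14, and the other 3 Ado KO libraries lay between 18.62 and 29.13.

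**Figure D1:**
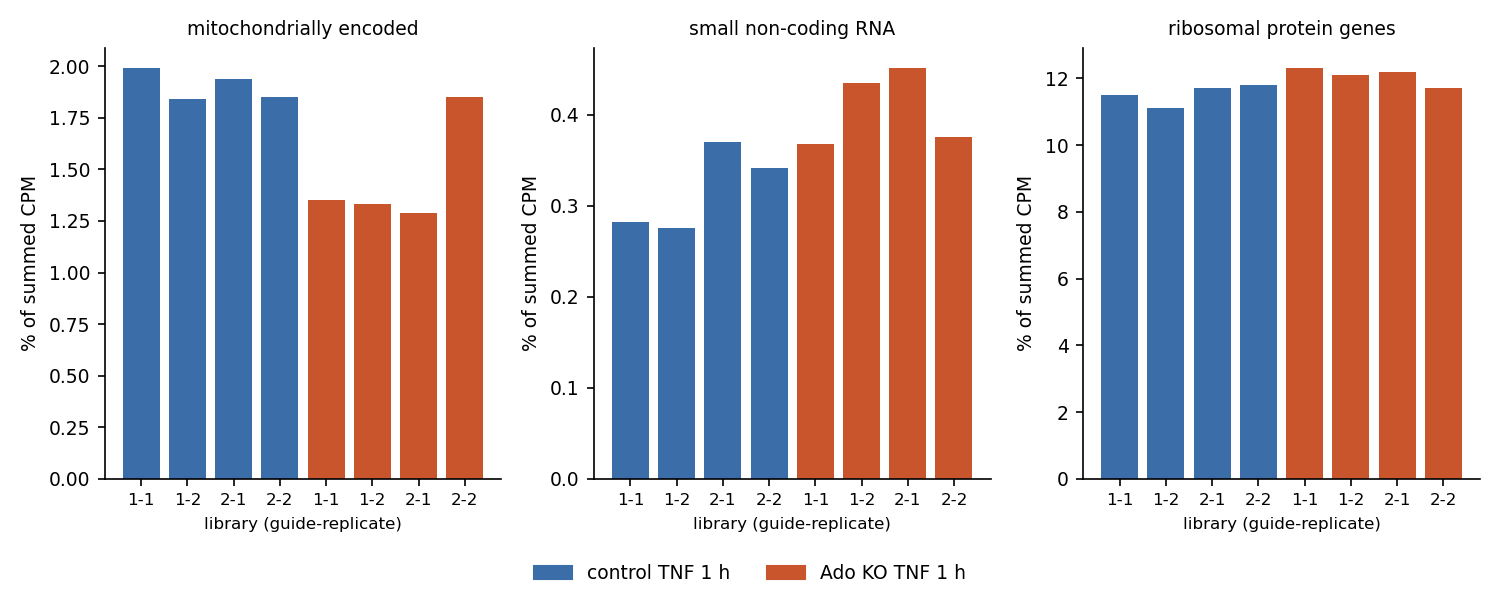
Share of the summed CPM (percent, bars from 0) taken by groups of genes in each of the 8 libraries at TNF 1 h. The mitochondrial share of Ado KO 2-2 (1.85%) lies in the control range of 1.84 to 1.99%, and the other Ado KO libraries lie at 1.29 to 1.35%.

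The message of the targeted gene did not pass the test. Ado (chromosome 10, GRCm38 positions 67544511 to 67548955, minus strand) was at 5.14, 5.02, 5.21 and 5.37 log2 CPM in control libraries 1-1, 1-2, 2-1 and 2-2, and at 5.53, 5.36, 5.36 and 5.14 in the Ado KO libraries in the same order. The groups overlapped, and the difference was 0.16 ± 0.106 (log2, Ado KO minus control, SE; limma adjusted p = 0.484). A tag at the 3' end can lie outside the edited part of a gene, so the level tests neither editing nor labelling. Of 12 epithelial markers only Krt8, a keratin of simple epithelia, was measured, at means of -0.30 log2 CPM in control and -0.83 in Ado KO libraries. Of 21 immune markers 6 were measured, and of 11 endothelial and pericyte markers 6 were measured. limma called 0 genes of these lists, and 0 had an unadjusted p under 0.05.

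At 1 h limma called 70 genes higher and 71 genes lower in Ado KO cells, with p-values adjusted by Benjamini-Hochberg across the genes kept and a threshold of 0.05. These were 0.527% and 0.535% of the genes tested, and the median difference over all genes was 0.01 on the log2 scale. At an unadjusted p under 0.05, 1124 genes were higher and 970 lower, 8.47% and 7.31% of the genes tested, and the same counts given below for gene lists are to be read against these shares. The lower genes included Cox6a2, 5 mitochondrially encoded messages, the class I gene H2-D1, and Sox9, Ecm1 and Il34. The higher genes included the chemokine gene Ccl5, the interferon-stimulated genes Isg15, Ifitm3, Irf9, Oas1a, Oas1g and Rtp4, the ribosomal protein gene Rpsa, and 23 small nucleolar RNAs (snoRNAs). Protein-coding genes made up 37 of the higher and 60 of the lower calls, and pseudogenes 7 and 11. All 141 called genes had 1 sign in all 4 comparisons of an Ado guide with a control guide, as had 40.7% of all genes kept. The 2 groups of 4 libraries did not overlap for 120 of the 141 called genes. Over all genes kept, Ado KO libraries lay wholly above the control libraries for 4.69% and wholly below them for 2.46%. The 141 genes were called on these same libraries. Their shared sign over guides and their separate groups follow in part from that choice and are not independent of it.

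**Figure D2:**
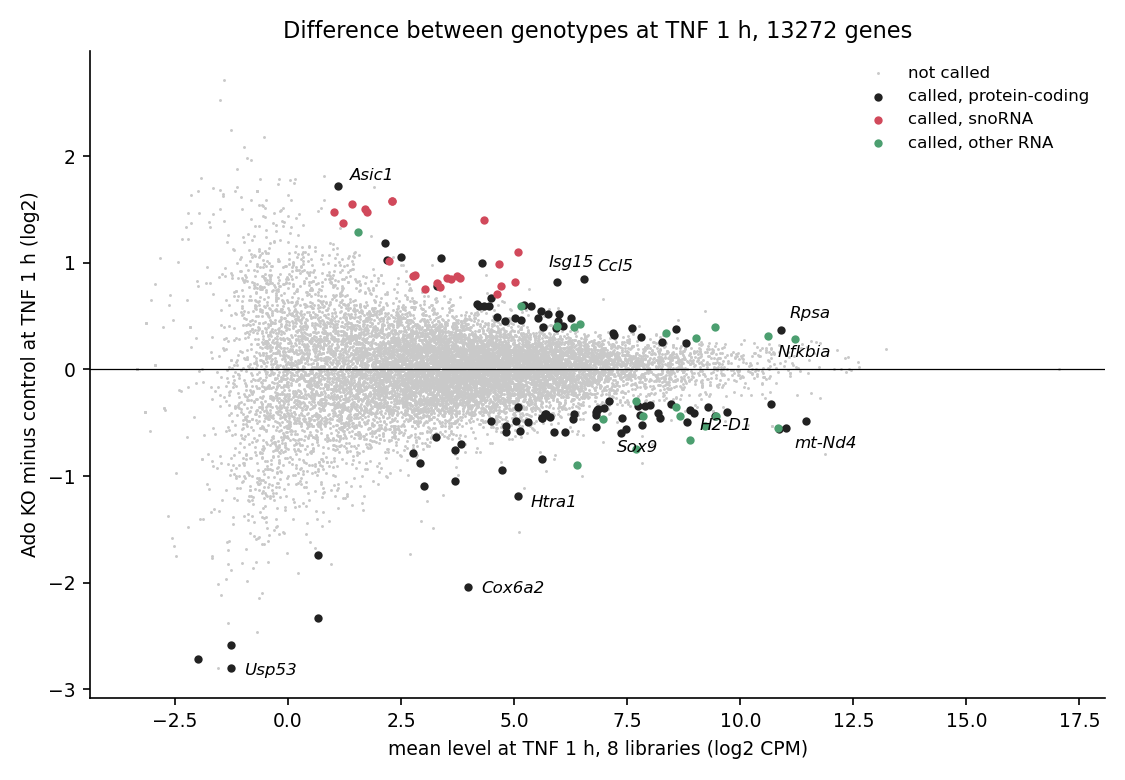
Difference at TNF 1 h (log2, Ado KO minus control) of each gene kept, against its mean level (log2 CPM) over the 8 libraries, with called genes coloured. The 70 genes called higher and 71 called lower lie above and below 0, and Cox6a2 lies at -2.04.

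The size of the called set rested on single libraries. Without Ado KO 2-2, 434 genes were called, and without Ado KO 2-1, 1-2 or 1-1 the counts were 30, 60 and 65. Without control 1-1 the count was 72. Fitted on the 8 libraries at 1 h alone, limma called 3 genes, Cox6a2, Ccl5 and Isg15. These were called in all 24 settings that gave this comparison. The fit on the 8 libraries is among those settings, so no other gene could be. Of the 141 genes, 28 were called in each of the 8 fits that left out 1 library, among them Cox6a2, Ccl5, Isg15, Ifitm3, Ecm1, Sox9, H2-D1, Rpsa, Htra1, Col5a1, Snhg12 and mt-Co1. Fewer calls held when a whole guide population was left out. Of the 65 named genes that were called, 7 lost no call in those fits, among them Cox6a2, Ccl5, Isg15, Ecm1, Sox9 and mt-Co1. Htra1 and Col5a1 each lost the call in 3 of them, and Ifitm3, H2-D1, Rpsa and Snhg12 in 1. No called gene changed sign in the 8 fits that left out 1 library, which also follows in part from their choice in these same libraries.

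Cox6a2 encodes a subunit of cytochrome c oxidase, the isoform known from heart and skeletal muscle, and it showed the smallest adjusted p of all genes. It was at 4.85, 4.73, 5.10 and 5.35 log2 CPM in control libraries 1-1, 1-2, 2-1 and 2-2, and at 3.00, 3.17, 2.92 and 2.79 in Ado KO libraries. Every Ado KO library lay below every control library, and both Ado guides were low. The means were 5.01 ± 0.28 and 2.97 ± 0.16 (SD, n = 4 each), a difference of -2.04 ± 0.207 (SE; limma adjusted p = 6.39e-07). The same gene differed by -2.24 before TNF and by -2.08 at 6 h (limma adjusted p = 6.54e-08 and 4.08e-07). In these bulk libraries, fewer cells with a message and less of the message per cell cannot be told apart. The gene lies on chromosome 7 at 128205435 to 128206387, minus strand (GRCm38).

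Sox9, a transcription factor of stem and progenitor cells of the intestine, was at 8.25, 7.87, 8.15 and 8.13 in control and at 7.58, 7.60, 7.48 and 7.64 log2 CPM in Ado KO libraries. The groups were separate, with a difference of -0.52 ± 0.0827 (limma adjusted p = 0.00117), and it also fell by 0.61 before TNF and by 0.69 at 6 h. Ecm1, a secreted glycoprotein of the extracellular matrix, was at 7.49 to 7.76 in control and 7.08 to 7.23 in Ado KO libraries, a difference of -0.46 ± 0.0679 (limma adjusted p = 0.000716). Il34, a ligand of the CSF1 receptor, was at 5.72 to 6.29 in control and 5.48 to 5.64 in Ado KO libraries, a difference of -0.45 ± 0.102 (limma adjusted p = 0.0242). These genes were called at all 3 times with Cox6a2, Snhg12, Snora44 and Gm24044.

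None of 8 known TNF targets passed the test between genotypes at 1 h. Nfkbia, which encodes the NF-kB inhibitor IkB-alpha, was at 10.80, 10.89, 10.43 and 10.42 log2 CPM in control and at 10.66, 10.53, 10.63 and 10.71 in Ado KO libraries. The Ado KO values lay within the control range, and the mean levels at 1 h exceeded those of untreated cells by 3.10 in control and 3.13 in Ado KO cells (log2). Tnfaip3, which encodes the inhibitor A20, differed from untreated cells by 4.20 and 3.82, and the neutrophil chemokine gene Cxcl1 by 5.57 and 4.74. Ccl2, a chemokine for monocytes, was at 8.72, 7.59, 8.49 and 8.31 in control and at 7.60, 5.76, 7.61 and 8.62 in Ado KO libraries. Ado KO 1-2 was the lowest of all and Ado KO 2-2 lay among the control libraries near their top, while control 1-2 lay at the level of Ado KO 1-1 and 2-1. The groups overlapped, and the difference of -0.88 ± 0.331 did not pass the test (limma adjusted p = 0.188). Junb, Zfp36, Irf1 and Btg2 gave genotype differences of 0.05, -0.13, -0.27 and 0.28 on the log2 scale.

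Whether the response to TNF differed between genotypes was tested over all genes as the change from untreated to 1 h in Ado KO minus that in control cells. limma called 0 genes for this difference, with 628 higher and 676 lower at an unadjusted p under 0.05. Without Ado KO 2-2 at 1 h it called 38, and without any other single library at 1 h or before TNF it called 0. For the 8 TNF targets named above the adjusted p lay between 0.578 for Ccl2 and 0.943 for Nfkbia. Among 27 measured NF-kB subunits and feedback genes limma called 0, with 0 higher and 1 lower at an unadjusted p under 0.05, and their median difference was -0.01. Of 43 measured genes in the list for TNF receptors, their signalling and cell death, limma called 0 (5 higher and 4 lower at an unadjusted p under 0.05).

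Of 40 measured immediate-early and MAP kinase feedback genes, 1 was called, Klf6, a zinc finger transcription factor. Klf6 was at 6.83, 7.61, 6.94 and 6.92 log2 CPM in control and at 6.38, 6.48, 6.54 and 6.75 in Ado KO libraries. Control 1-2 was the highest, the groups did not overlap, and the difference was -0.54 ± 0.134 (limma adjusted p = 0.04). The call was lost in 4 of the 8 fits that left out 1 library. The median of the list was 0.016, against 0.012 over all genes.

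Of 10 measured chemokines and cytokines, Ccl5 was called higher and Il34 lower. Ccl5 encodes a chemokine that attracts T cells and monocytes. It was at 6.33, 5.89, 6.05 and 6.25 log2 CPM in control and at 7.06, 7.09, 6.99 and 6.77 in Ado KO libraries. Every Ado KO library lay above every control library, by 0.85 ± 0.102 on average (limma adjusted p = 1.57e-05). Between single guides the difference ran from 0.73 to 0.97. Ccl5 differed by 0.70 before TNF (limma adjusted p = 0.00054) and by 0.33 at 6 h, where it did not pass the test (limma adjusted p = 0.125). Its level at 1 h differed from the untreated level by -0.11 in control and by 0.04 in Ado KO cells.

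Of 47 measured interferon-stimulated genes, 3 were called higher (Isg15, Irf9 and Oas1a) and 0 lower, and 30 were positive, with a median difference of 0.138. At an unadjusted p under 0.05, 10 were higher and 2 lower (21.3% and 4.26%). Ifitm3, Oas1g and Rtp4 are not in that list and were singled out after their values were seen. The median of the list was 0.274 before TNF and 0.32 at 6 h. The count of called members was 1 without Ado KO 1-2 or 2-1, 2 without control 1-1 or Ado KO 1-1, 7 without Ado KO 2-2, and 3 or 4 without any other library.

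Isg15, a ubiquitin-like modifier, was at 5.46, 5.70, 5.35 and 5.62 log2 CPM in control and at 6.53, 6.44, 6.18 and 6.27 in Ado KO libraries. The groups were separate, with a difference of 0.82 ± 0.139 (limma adjusted p = 0.00237). A stretch of at least 50 bases near its 3' end is at least 95 percent identical to another gene model, AC151275.1. Tags of the 2 could therefore be mixed. Irf9, a part of the factor ISGF3 that carries interferon signals to the genome, was at 5.82, 5.74, 5.54 and 5.84 in control and at 6.13, 6.35, 6.21 and 6.06 in Ado KO libraries. All 4 Ado KO values were above the control values, by 0.45 ± 0.0908 (limma adjusted p = 0.0101). Ifitm3, a membrane protein that restricts virus entry, was at 8.31 to 8.46 in control and 8.68 to 8.85 in Ado KO libraries, a difference of 0.38 ± 0.0638 (limma adjusted p = 0.00237).

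Oas1a and Oas1g belong to the family of oligoadenylate synthetases, which sense double-stranded RNA. The 3' end of each holds a stretch alike in the other, so their tags cannot be kept apart with certainty. Oas1a was at 5.14, 5.51, 5.62 and 5.68 log2 CPM in control and at 6.14, 6.13, 6.08 and 5.69 in Ado KO libraries. Ado KO 2-2 was only just above the highest control library, and the difference was 0.52 ± 0.124 (limma adjusted p = 0.0315). Oas1g differed by 0.55 ± 0.124 (limma adjusted p = 0.0233), its groups overlapped, and its control guides also differed from each other by 0.55 (limma adjusted p = 0.036).

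The promoters of the interferon-stimulated genes that were called are shown because a motif of the interferon-stimulated response element, GAAA and GAAA with any 2 bases between them, occurs in some of them. It was searched on both strands in the 250 bases before each start site of the RefSeq promoters (GRCm38.p6), and overlapping matches were counted. Isg15, Oas1a and Oas1g held it, which was 3 of 31 higher genes with a promoter entry, against 0 of 39 lower genes, 3.25% of 8720 genes kept and 2.98% of all 32851 promoters. In the sequences below, 5' to 3' on the gene's strand, capitals mark the run of matches. They lie at chr4:156200845-156200926, chr5:120907526-120907575 and chr5:120887614-120887661, all on the minus strand.
Isg15: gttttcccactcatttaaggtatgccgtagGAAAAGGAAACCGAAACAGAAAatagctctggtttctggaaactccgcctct
Oas1a: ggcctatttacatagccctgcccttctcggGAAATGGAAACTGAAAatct
Oas1g: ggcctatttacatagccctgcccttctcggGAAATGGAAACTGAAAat
The Isg15 window holds 3 overlapping matches, and those of Oas1a and Oas1g hold 2 each. The Oas1a and Oas1g stretches are alike, and the tags of these genes cannot be kept apart with certainty. They are therefore not independent entries in the share of higher genes. The Irf9 and Ifitm3 windows held 0 matches of these letters, and Rtp4 had no promoter entry. A motif of NF-kB sites, GGG and CC with any 5 bases between them, searched in the same way, was in 25 of 31 higher and 28 of 39 lower genes, against 67.22% of genes kept.

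Genes of class I antigen presentation were on balance at lower values. Of 23 measured, 2 were called lower (H2-D1 and Canx) and 0 higher, 4 were positive, and the median difference was -0.291, against 0.012 over all genes. H2-D1, a class I heavy chain, was at 9.17, 8.97, 9.09 and 9.06 log2 CPM in control and at 8.67, 8.22, 8.61 and 8.83 in Ado KO libraries. The groups were separate, and Ado KO 1-2 was the lowest, with a difference of -0.49 ± 0.0889 (limma adjusted p = 0.00335). Its 3' end holds a stretch alike in 23 other genes, class I or not, so some of its tags are uncertain. Canx, the chaperone calnexin, differed by -0.35 ± 0.0829 (limma adjusted p = 0.032) with separate groups. H2-Q7, H2-K1 and B2m, the light chain, had differences of -0.30, -0.28 and -0.34 and did not pass the test. The median of the list was -0.221 before TNF and -0.188 at 6 h.

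**Figure D3:**
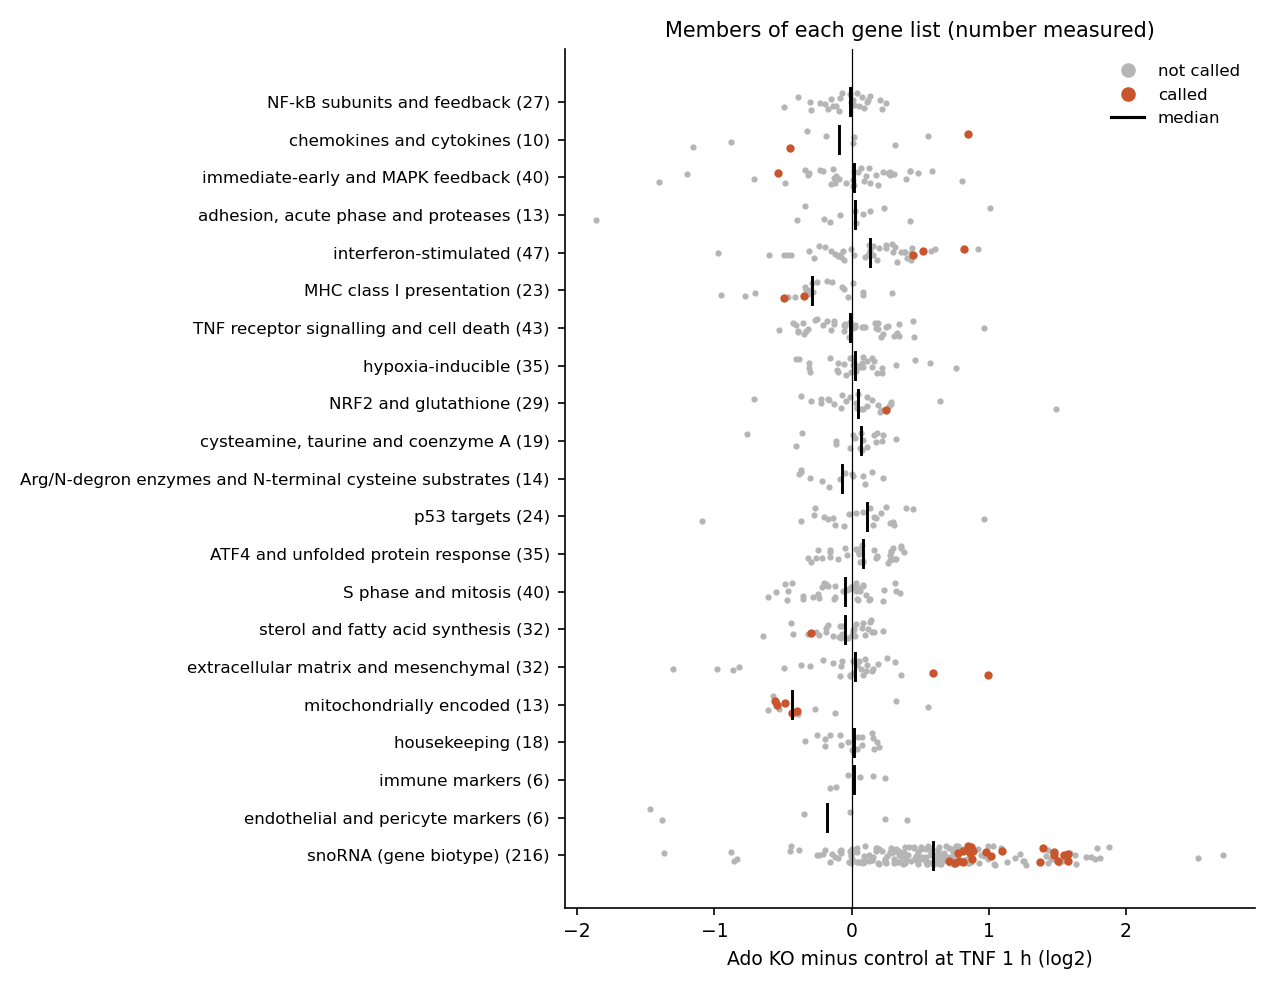
Difference at TNF 1 h (log2, Ado KO minus control) of the measured members of each gene list, 1 point per gene, with the list's median. Medians range from -0.437 for mitochondrially encoded messages to 0.594 for snoRNAs, and the other lists shown lie between -0.291 and 0.138.

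Of 13 mitochondrially encoded messages, 5 were called lower (mt-Co1, mt-Co2, mt-Co3, mt-Cytb and mt-Nd4) and 0 higher, with a median of -0.437. mt-Co1, a core subunit of cytochrome c oxidase, was at 9.83, 9.89, 10.03 and 9.85 log2 CPM in control and at 9.56, 9.43, 9.50 and 9.54 in Ado KO libraries. The groups were separate, with a difference of -0.40 ± 0.073 (limma adjusted p = 0.0042), and it differed by -0.47 at 6 h (limma adjusted p = 0.00047). mt-Nd4, a subunit of complex I, was at 11.37, 11.53, 11.21 and 11.04 in control and at 10.56, 10.59, 10.60 and 11.21 in Ado KO libraries. Ado KO 2-2 lay in the control range and the other 3 lay below it, so the groups overlapped at a difference of -0.55 ± 0.109 (limma adjusted p = 0.0096). The same library was the highest of the Ado KO group for mt-Co2, mt-Co3 and mt-Cytb. The number called lower was 1 without Ado KO 2-1, 2 without Ado KO 1-2, 3 without control 1-1, control 2-1 or Ado KO 1-1, and 8 without Ado KO 2-2. It was 0 with no trend on the mean and on the 8 libraries at 1 h alone, 1 without Ado guide 1, 3 without control guide 1 and 8 with guide populations as fixed terms. The part of the mitochondrial share of each library in these differences was not tested.

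The 2 mitochondrial messages with a positive difference were mt-Nd4l, at 7.80 to 8.08 in control and 8.11 to 8.41 in Ado KO libraries, and mt-Nd6, at 4.08 to 4.39 in control and 4.59 to 5.19 in Ado KO libraries. Neither passed the test, with differences of 0.33 and 0.56 (limma adjusted p = 0.0677 and 0.068). The list's median was -0.045 before TNF and -0.26 at 6 h. Among 85 nuclear-encoded genes of the respiratory chain, Atp5k was called higher, and Cox6a2, Cox7c and Ndufb3 were called lower, with a median of 0.034. Of the 11 pseudogenes called lower, 5 resemble a mitochondrially encoded gene and 2 resemble Cox7c, so these calls are not independent of the genes they resemble. Polg, the mitochondrial DNA polymerase, was higher by 0.59 (limma adjusted p = 0.0104), and Slc25a4, an ADP/ATP carrier of the inner membrane, differed by -0.43 (limma adjusted p = 0.0178).

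**Figure D4:**
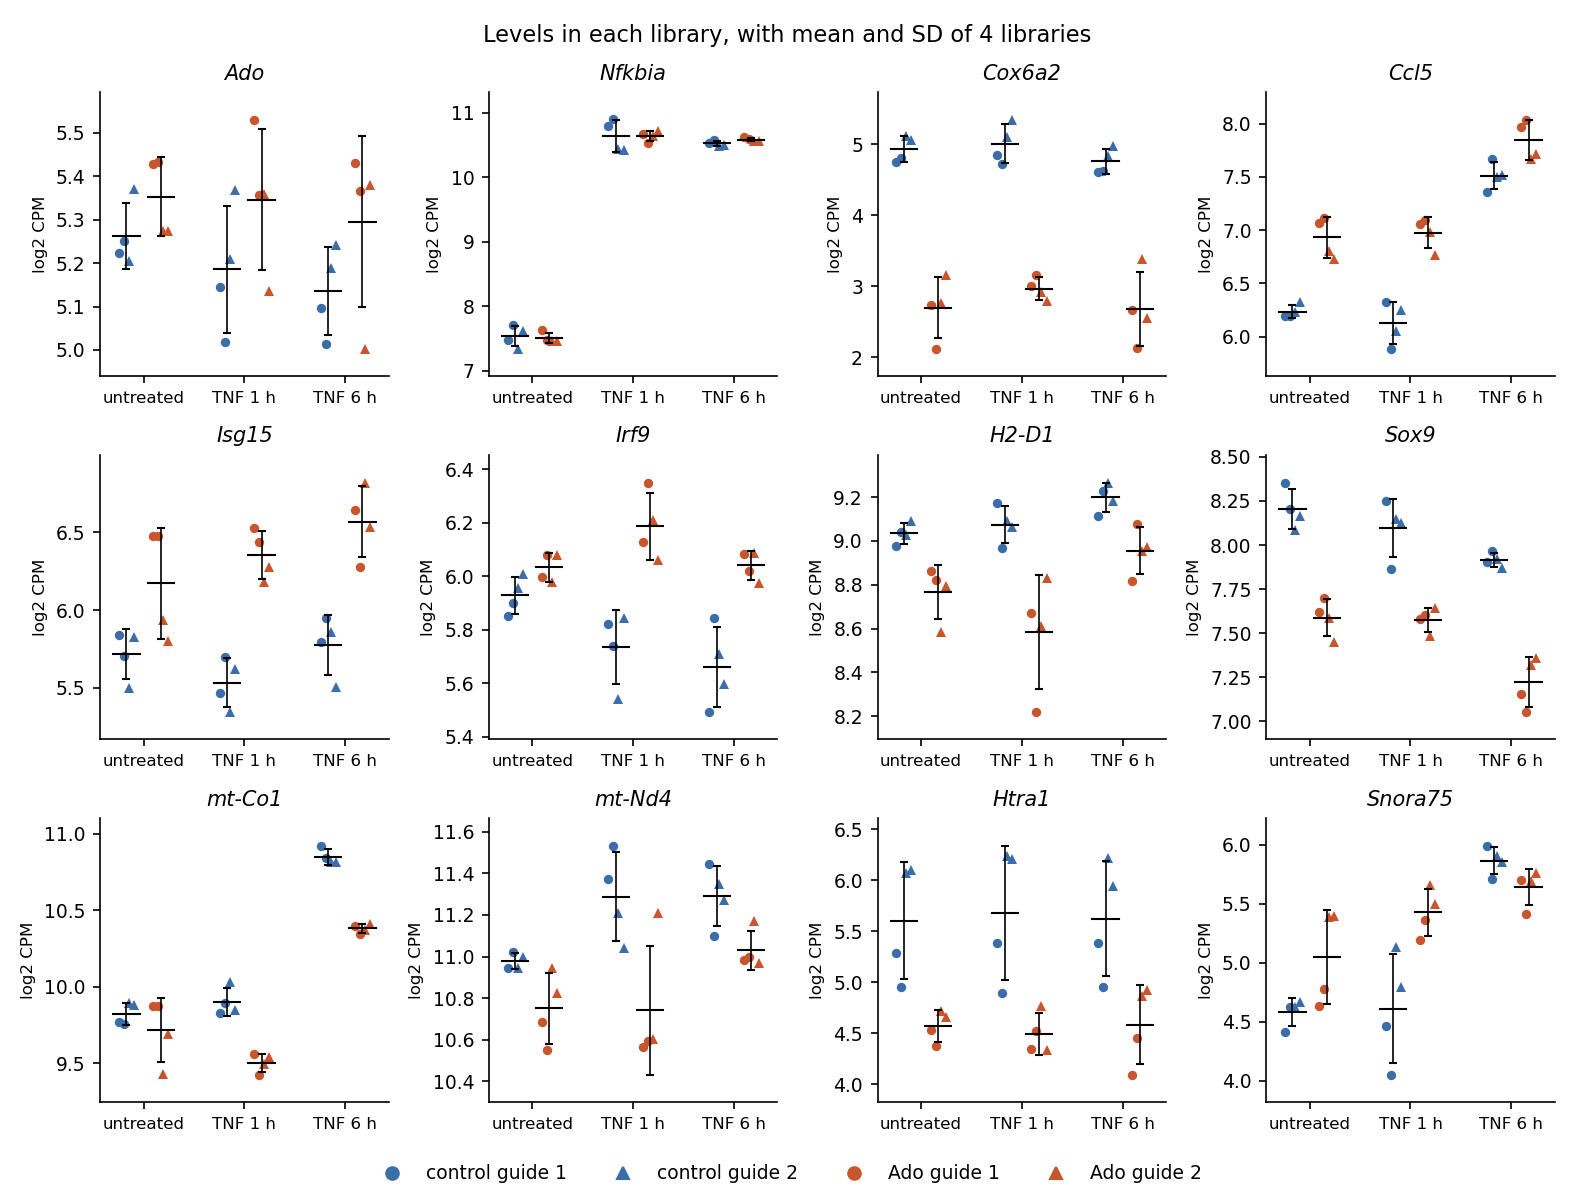
Level (log2 CPM) of 12 genes in all 24 libraries, untreated and at TNF 1 h and 6 h, with circles for guide 1, triangles for guide 2 and the mean ± SD (n = 4). Cox6a2 lies lower in Ado KO libraries at all 3 times, and Ado KO 2-2 lies among the control libraries for mt-Nd4 at 1 h.

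All 23 snoRNAs that passed the test were higher. Small nucleolar RNAs guide the chemical modification of ribosomal RNA: those with an H/ACA box direct pseudouridylation and those with C and D boxes direct methylation of the ribose. Most are cut from introns of host genes and are not polyadenylated as mature molecules. Of 216 measured snoRNAs, 190 had a positive difference, the groups were separate for 50 with Ado KO above and for 0 with Ado KO below, and the median was 0.594. At an unadjusted p under 0.05, 81 were higher and 0 lower (37.5% and 0%). Small nuclear RNAs (72 measured) had a median of 0.333 and replication-dependent histone genes (64 measured) one of 0.2, with 0 called by limma in either group (8 and 17 higher, 3 and 0 lower at an unadjusted p under 0.05). The number of called snoRNAs was 5 without Ado KO 2-1, 11 without Ado KO 1-2, 13 without Ado KO 1-1, 12 without control 1-1, and 35 without control 2-1 or Ado KO 2-2. It was 6 without control guide 1 and 60 without control guide 2, 10 and 5 without Ado guide 1 and 2, 5 with no trend on the mean, 52 with guide populations as fixed terms and 0 on the 8 libraries at 1 h alone. The share of small RNA genes in the libraries, given above, moved in the same direction, and its part in these differences was not tested.

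Sequences of 4 of these snoRNAs are shown for both families, from the GENCODE M21 transcripts (GRCm38). Capitals mark the ACA box of Snora20 (chr17:12922790-12922917, plus strand) and Snora75 (chr1:86351169-86351301, minus strand). In Snord2 (chr16:23108953-23109021, plus strand) and Snord14a (chr7:116333171-116333257, minus strand) they mark the C box and the D box.
Snora20: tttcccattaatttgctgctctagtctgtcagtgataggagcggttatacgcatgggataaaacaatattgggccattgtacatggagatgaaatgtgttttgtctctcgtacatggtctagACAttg
Snora75: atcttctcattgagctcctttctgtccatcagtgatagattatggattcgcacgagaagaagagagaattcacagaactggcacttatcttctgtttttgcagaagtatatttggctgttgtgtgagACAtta
Snord2: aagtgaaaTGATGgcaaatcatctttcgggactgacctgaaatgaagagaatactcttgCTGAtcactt
Snord14a: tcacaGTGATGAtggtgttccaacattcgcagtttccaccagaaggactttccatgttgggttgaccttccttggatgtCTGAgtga

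Snora75 was at 4.47, 4.05, 5.13 and 4.79 log2 CPM in control and at 5.19, 5.37, 5.66 and 5.50 in Ado KO libraries. The control guides stood apart from each other by 0.70 (limma adjusted p = 0.0206), and guide 2 came close to the Ado KO libraries without overlap. The difference was 0.82 ± 0.168 (limma adjusted p = 0.0114). Snora20 was at 1.95, 2.26, 2.64 and 2.45 in control and at 2.90, 3.14, 3.30 and 3.44 in Ado KO libraries, a difference of 0.87 ± 0.208 (limma adjusted p = 0.032). Snord14a was at 0.81, 0.42, 0.69 and 0.66 in control and at 2.55, 1.90, 2.45 and 1.88 in Ado KO libraries. It was low in every control library, near the filter's limit, and higher in Ado KO libraries by 1.55 ± 0.359 (limma adjusted p = 0.0271). Snord2 was at -0.06, 1.07, 1.68 and 1.39 in control and at 2.31, 2.35, 2.74 and 2.58 in Ado KO libraries, a difference of 1.48 ± 0.347 (limma adjusted p = 0.0296).

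Of the 23 called snoRNAs, 22 lie inside a gene, 21 have a host that was measured, and these share 16 hosts. limma called 2 of the 16 hosts higher and 0 lower, 13 were positive, and the host median was 0.13, with a range of -0.355 to 0.598. The called hosts were Rpsa, which holds Gm24044, and the lincRNA Snhg12, which holds Snora44. Rpsa, a protein of the small ribosomal subunit, was at 10.71, 10.62, 10.78 and 10.77 log2 CPM in control and at 11.12, 11.12, 11.15 and 10.94 in Ado KO libraries. All Ado KO libraries were above all control libraries, by 0.37 ± 0.0561 (limma adjusted p = 0.000984). The 3' end of Rpsa holds stretches alike in 20 other genes, Gm24044 among them. Of the pseudogenes called higher, 3 resemble Rpsa, so these calls are not independent of it. Ncl, the host of Snora75, had a difference of -0.35 with an adjusted p of 0.212 by limma. For 13 of the 23 the snoRNA overlaps an exon of its host, where tags of the 2 cannot be told apart, and 7 share sequence with other genes. Gm23711 and Gm24091 had identical values in every library and are 1 measurement. Outside the snoRNAs, Galnt2 and Gm20388, both called lower, had the same values in every library at 1 h and are not independent calls.

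At 6 h most of these snoRNAs had a difference of the opposite sign. The 23 had a median difference of 0.671 before TNF, 0.886 at 1 h and -0.4 at 6 h, and 23, 23 and 5 were positive. The difference at 6 h minus that at 1 h was tested over all genes: 61 genes were called (0.46%), 1 higher and 60 lower, and 13 of the 23 snoRNAs were among them. This comparison was added after the change of sign had been seen, and both differences share the Ado KO and control populations. The 23 were chosen for a high difference at 1 h, which this comparison subtracts, so their count here is not independent of that choice. All 216 measured snoRNAs, not chosen by that difference, had medians of 0.464 before TNF, 0.594 at 1 h and -0.626 at 6 h. At 6 h limma called 0 of the 216 higher and 25 lower. Snora20 differed by -1.02 at 6 h (limma adjusted p = 0.00875), and its change from 1 h was -1.89 (limma adjusted p = 0.00026). Snhg12 was higher by 0.60 at 1 h and at a difference of -0.60 at 6 h, a change of -1.20 (limma adjusted p = 4.88e-05). Small RNA genes made up 2.04 to 3.08% of the summed CPM in control and 1.34 to 1.58% in Ado KO libraries at 6 h. Without control 1-1 at 6 h, 30 genes were called for this change, and without control guide 1, 10. A fit on protein-coding genes normalised on their own called 0 genes for it by limma, but that fit holds no snoRNA and does not bear on them.

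**Figure D5:**
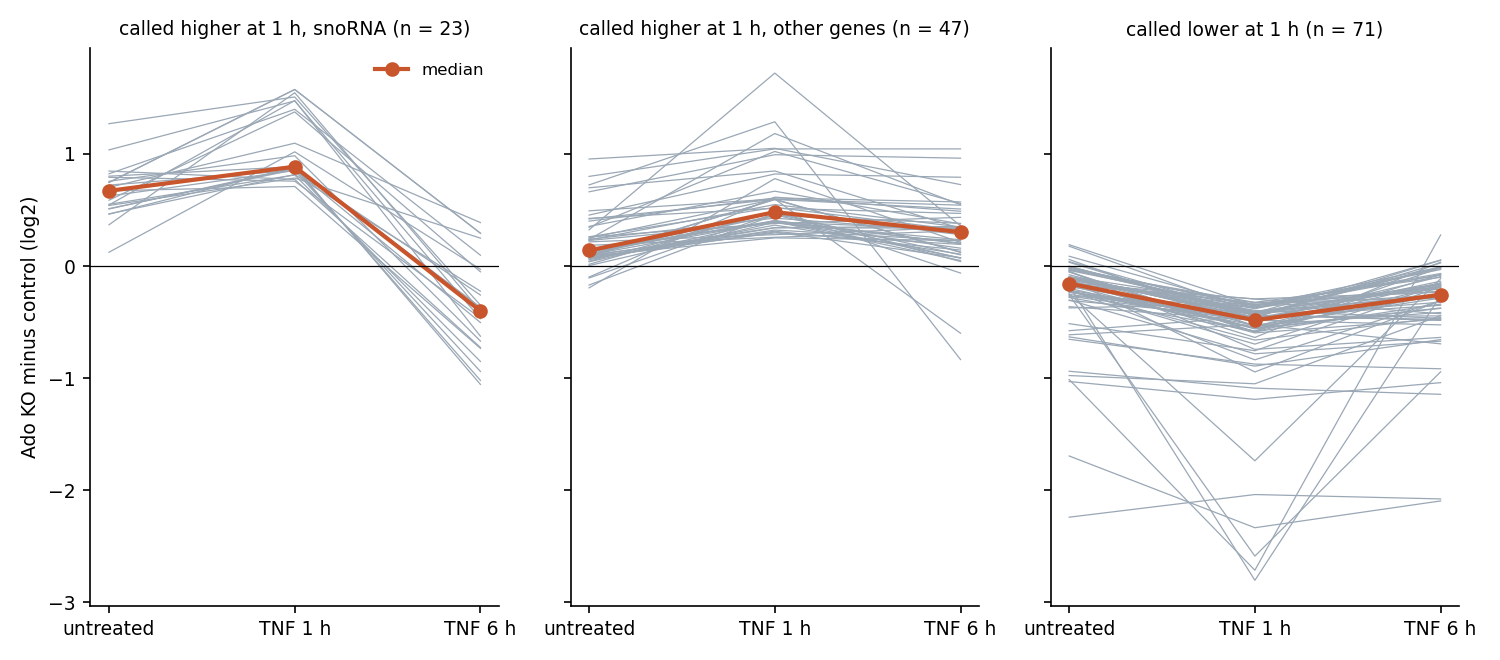
Difference (log2, Ado KO minus control) before TNF, at 1 h and at 6 h for the genes called at 1 h, in 3 panels: 23 snoRNAs, 47 other higher genes and 71 lower genes. The snoRNA medians run from 0.671 through 0.886 to -0.4, whereas the other higher genes keep a positive median and the lower genes a negative one.

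Among the other called genes, most had the sign of their 1 h difference at the other times. The 47 other higher genes had medians of 0.139, 0.481 and 0.303 before TNF, at 1 h and at 6 h, and 43 and 44 of them were positive before TNF and at 6 h. The 71 lower genes had medians of -0.156, -0.483 and -0.255, and 6 and 5 were positive before TNF and at 6 h. Over all genes kept, 53.8% had the sign of their 1 h difference before TNF and 61.8% had it at 6 h. Before TNF limma called 33 genes (0.249%), of which 9 were also called at 1 h, 6.38% of the 1 h list and 27.3% of the untreated list. At 6 h it called 135 genes (1.02%), of which 37 were also called at 1 h, 26.2% of the 1 h list and 27.4% of the 6 h list. Of the 37, 30 had 1 sign at both times. Of the 141 genes, 102 were called at 1 h only, which does not show that their difference was absent at the other times. The untreated count was 11 without control 1-1, 12 without control 1-2 and 13 without Ado KO 2-2. The count at 6 h was 58 without control 1-1 or Ado KO 2-1, 68 without control 1-2, 66 without Ado KO 2-2 and 75 without Ado KO 1-2. The same guide populations were used at all 3 times.

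Some called genes also differed between the control guides. At 1 h limma called 170 genes (1.28%) between control guide 2 and control guide 1, and 0 between the Ado guides (523 higher and 405 lower at an unadjusted p under 0.05). Without Ado KO 1-1 that comparison of Ado guides called 192 genes, and without Ado KO 2-1 it called 49. Between the control guides the count ran from 18 without control 2-1 to 1558 without control 1-1, with 47 without control 1-2, 41 without control 2-2, and 262 and 266 without Ado KO 2-1 and 2-2. Of the 141 genes, 9 were also called between the control guides (6.38%). The guide contrasts came from a fit with guide populations as fixed terms, and the 141 genes from one with a random block. With fixed terms the genotype comparison at 1 h called 609 genes, so the 170 and the 141 are not from like fits.

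Htra1, a secreted serine protease, was at 5.38, 4.89, 6.24 and 6.21 log2 CPM in control and at 4.34, 4.52, 4.77 and 4.34 in Ado KO libraries. Its control guides differed by 1.09 (limma adjusted p = 0.00188), and the genotype difference was -1.19 ± 0.25 (limma adjusted p = 0.0126). Measured against control guide 1, the Ado guides differed by -0.71 and -0.59, and against control guide 2 by -1.79 and -1.67. St3gal1, a sialyltransferase, showed the same layout, with -0.78 and -0.41 against control guide 1 and -1.69 and -1.32 against control guide 2. Col5a1, a chain of fibrillar collagen V, was at 3.55, 3.27, 4.52 and 3.85 in control and at 4.80, 4.71, 4.98 and 4.67 in Ado KO libraries. Control 2-1 came closest to the Ado KO libraries, and the difference was 0.99 ± 0.189 (limma adjusted p = 0.00582). Col5a1 and Timp1, an inhibitor of matrix metalloproteases, were the 2 genes called of 32 measured extracellular matrix and mesenchymal genes.

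Further called genes were spread over functions. Sema5a, a semaphorin that guides axons, was at 3.24 to 3.85 in control and 1.91 to 2.79 in Ado KO libraries, a difference of -1.09 ± 0.226 (limma adjusted p = 0.0118). Idh1, the cytosolic isocitrate dehydrogenase, was at 4.10 to 4.29 in control and 3.40 to 3.65 in Ado KO libraries, a difference of -0.70 ± 0.16 (limma adjusted p = 0.0265). Both were separate between groups, and their control guides differed by -0.01 and 0.02. Penk, the precursor of enkephalins, was at 1.39 to 2.39 in control and 2.62 to 3.31 in Ado KO libraries, a difference of 1.05 ± 0.221 (limma adjusted p = 0.0126). Asic1, an acid-sensing ion channel, was at -0.06, -0.30, 0.35 and 0.97 in control and at 1.76, 2.15, 2.32 and 1.60 in Ado KO libraries. It was near the filter's limit in control cells, and its difference of 1.72 ± 0.389 (limma adjusted p = 0.0233) was the largest rise among the genes named by the rule. Usp53 was at -0.06 to 0.42 in control libraries, and 3 Ado KO libraries were at the lowest value of the scale, -3.35, with Ado KO 1-2 at -0.57. The size of its difference is therefore not defined, although it was called (limma adjusted p = 0.0142).

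Several of the largest differences were in genes with low or widely spread values. Pramef12 was at 1.95, 1.42, 1.60 and 2.36 log2 CPM in control and at -0.26, 1.60, -1.61 and -1.73 in Ado KO libraries. Ado KO 1-2 lay in the control range and the other 3 below it, at a difference of -2.33 ± 0.512 (limma adjusted p = 0.0178). Ribc1 had 2 Ado KO libraries at the bottom of the scale, so the size of its difference is not defined, and its call was lost in 6 of the 8 fits that left out 1 library. Eloc, the elongin C subunit of ubiquitin ligases, was at 5.00 to 5.45 in control and at 4.55, 3.28, 4.03 and 5.14 in Ado KO libraries. Ado KO 2-2 was again in the control range, at a difference of -0.94 ± 0.226 (limma adjusted p = 0.032). Ugp2, which makes UDP-glucose, and Ahsa2 differed by -0.78 and -0.64, and their calls were lost in 6 and 7 of those 8 fits.

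Among the higher genes, Prrx2, a homeobox transcription factor of mesenchyme, was at 3.37, 2.14, 3.21 and 2.77 in control and at 3.67, 4.37, 3.82 and 3.80 in Ado KO libraries. The groups were separate, with a difference of 1.04 ± 0.237 (limma adjusted p = 0.0242), and Prrx2 was also called at 6 h (1.04, limma adjusted p = 0.022). Map3k10, a kinase upstream of JNK, was at 2.48 to 3.15 in control and 3.60 to 3.73 in Ado KO libraries, a difference of 0.78 ± 0.161 (limma adjusted p = 0.0115). Hba-a1, an alpha globin whose 3' end holds a stretch alike in Hba-a2, and Ube2cbp differed by 1.02 and 1.18. Their calls were lost in 4 and 5 of the 8 fits that left out 1 library.

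Genes with a role in metabolism, stress or development also passed the test. Aldh1l2, a mitochondrial enzyme of folate metabolism, was at 2.96 to 3.63 log2 CPM in control and 2.31 to 2.74 in Ado KO libraries, a difference of -0.87 ± 0.202 (limma adjusted p = 0.0265). Ppp3ca, the catalytic subunit of calcineurin, was at 5.79 to 6.19 in control and 4.79 to 5.74 in Ado KO libraries, a difference of -0.84 ± 0.191 (limma adjusted p = 0.0246). Il18, a cytokine of the IL-1 family, was at 1.20 to 1.85 in control and -0.57 to 0.06 in Ado KO libraries, low values on this scale. Its groups were separate, as were those of Aldh1l2 and Ppp3ca. Smo, the signal transducer of the hedgehog pathway, was at 5.94 to 6.14 in control and 6.38 to 6.58 in Ado KO libraries, a difference of 0.48 ± 0.101 (limma adjusted p = 0.0126). Mt2, a metallothionein that binds zinc, was at 9.40 to 9.57 in control and 8.97 to 9.22 in Ado KO libraries, a difference of -0.35 ± 0.0761 (limma adjusted p = 0.0152). Neither Smo nor Mt2 overlapped between groups, and neither passed the test before TNF or at 6 h.

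Lists close to the known chemistry of ADO held 0 called genes by limma. With 0.527% of all genes called higher and 0.535% lower, lists of this size would hold few calls or none at that share. Message levels also do not measure the oxidation of proteins or of cysteamine. Of 14 measured Arg/N-degron enzymes and N-terminal cysteine substrates, 0 were higher and 2 lower at an unadjusted p under 0.05, and the median was -0.069. Ube2b, a ubiquitin-conjugating enzyme of that pathway, had a difference of -0.37 (limma adjusted p = 0.104), and Rgs16, a regulator of G protein signalling with an N-terminal cysteine, one of -0.38 (limma adjusted p = 0.538). Of 19 measured genes for handling cysteamine, taurine or coenzyme A, 0 were higher and 1 lower at an unadjusted p under 0.05. Of 35 measured hypoxia-inducible genes, 3 were higher and 2 lower by that measure, with a median of 0.027. Among the 97 called protein-coding genes, 0 encode a cysteine after the initiator methionine, against 150 of 10725 measured protein-coding genes (1.4%). A share this small leaves few such genes among 97, and the 0 was not tested against it.

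The other lists held few called genes or none. Of 35 measured ATF4 and unfolded protein response genes, limma called 0. At an unadjusted p under 0.05, 10 of them were higher and 1 lower (28.6% and 2.86%, against 8.47% and 7.31% of all genes), 24 were positive, and their median was 0.081. Mthfd2, a mitochondrial enzyme of folate metabolism, and Psat1, of serine synthesis, had differences of 0.36 and 0.28 (limma adjusted p = 0.0751 and 0.0962). Of 29 measured NRF2 and glutathione genes, Prdx6, a peroxiredoxin, was called higher, by 0.25 (limma adjusted p = 0.0338). Of 32 measured genes of sterol and fatty acid synthesis, Acly, which makes cytosolic acetyl-CoA, was called lower, by -0.29 (limma adjusted p = 0.0496). limma called 0 of 24 measured p53 targets (4 higher and 2 lower at an unadjusted p under 0.05), 0 of 40 genes of S phase and mitosis (4 and 9, the latter 22.5%), 0 of 13 adhesion, acute phase and protease genes (2 and 3) and 0 of 18 housekeeping genes (3 and 4). Of 96 ribosomal protein genes, Rpsa was called higher and Rpl23 and Rpl30 lower, and 27 were higher and 7 lower at an unadjusted p under 0.05 (28.1% and 7.29%). Of the 141 called genes, 60 have a stretch in their last 300 bases that matches a transcript of another gene. A match was at least 95 percent identical over at least 50 bases and could lie anywhere in the other transcript. Among the 60 are snoRNAs that match their own host, and 23 of the 60 are protein-coding. Part of the tags of these genes could belong to the other gene.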

How the data were processed

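QuantSeq 3' mRNA libraries were made from total RNA, per the labels' protocols. The deposited table holds log2 CPM values that the authors had normalised: unlogged columns sum to 998900 to 999014, and the lowest value is -3.349. Values such as 11.795 and 11.743 recur across genes and libraries, so the columns are not plain scaled counts. The kind of normalisation is not stated. The tools named in the submitters' processing notes, in no order, are limma, HISAT2, cutadapt 1.7, FastQC, Subread and featureCounts, with builds GRCm38 and mm10. Their settings are not given in the sources used here. Raw counts were not used here.

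Each of the 24 libraries was mapped to its group by title and guide. limma 3.58.1 (R 4.3.3, statmod 1.5.0) was fitted on all 24 libraries with 6 group means, the guide population as a random block (correlation 0.0485), a trend on the mean and two-sided tests, adjusted by Benjamini-Hochberg over 13272 genes. Contrasts between guides came from 12 means of guide and treatment. The procedure was tested on simulated data. Stretches of 3' ends alike in transcripts of other genes were found with blastn 2.17.0 in GENCODE M21, where 15207 symbols matched 1 gene. Alternatives changed the libraries, block, trend, weights, filter, pseudocount, scaling and normalisation.

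The members and lists were chosen with earlier results of these data known. The rule for named genes takes Ado, the 15 largest rises and falls among called genes (without unnamed models and genes with means under 0 in both groups), up to 3 genes of each list and 8 TNF targets; list genes that did not pass the test are not all printed, and further genes (such as Sox9, Ecm1, Ifitm3, Rpsa, Snhg12, H2-K1, Rgs16 and Ncl) were chosen after their values were seen. In control guide 2 at 1 h the titles and the column names number the replicates in opposite order; the numbers here follow the titles.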

Additional observations from a re-analysis of the deposited data

Results flagged for a closer look

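Among 250 sets of a gene and a group of 4 libraries (125 genes), 15 held a library far from the other 3, measured as its gap to the nearest of them relative to the whole range; chance gives about 1 in 20 such sets. Values are log2 CPM at TNF 1 h. Library Ado KO 2-2 was apart for Oas1a at 5.69 (others 6.08 to 6.15), Oas1g at 5.66 (5.92 to 5.96), Rpsa at 10.95 (11.12 to 11.15), mt-Nd4 at 11.21 (10.56 to 10.6), mt-Co3 at 9.61 (9.06 to 9.15) and mt-Cytb at 11.74 (11.0 to 11.09). Ado KO 1-2 was apart for Usp53 at -0.57 (others -3.35), Aurkb at 3.92 (4.51 to 4.6) and Eif1b at 5.66 (5.45 to 5.48). Control 1-2 was apart for Pank4 at -0.3 (2.25 to 2.54), Klf6 at 7.61 (6.83 to 6.94), Hmox1 at 2.84 (3.01 to 3.04) and mt-Cytb at 11.42 (11.79 in each of the others). Control 2-2 was apart for Gadd45a at 0.15 (1.6 to 1.88), and control 2-1 for Nfkbie at 1.76 (2.66 to 2.8).

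The genotype difference at 6 h minus that at 1 h passed limma's test for 9 of the named genes. It was -2.1 for Snord2, -1.89 for Snora20, -1.79 for Snora47, -1.65 for Gm24044, -1.44 for Snora44, -1.36 for Snord55, -1.2 for Snhg12, -1.04 for Snora75 and -0.59 for mt-Nd4l, on the log2 scale. All of these except mt-Nd4l had been called higher at 1 h, and that 1 h difference is subtracted here.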

How the results depend on the processing

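None of the 65 named genes called at 1 h changed direction under any alternative run, which follows in part from their choice in the same libraries. The 141 calls at 1 h became 3 on the 8 libraries at 1 h only, 43 with no trend on the mean, 90 with protein-coding genes normalised again, 609 with guide populations as fixed terms (containing all 141), 956 without control guide 2, 23 and 71 without Ado KO guide 1 and guide 2, and 409 without control 1-2 and Ado KO 2-2 together (added after seeing the data). The fit on protein-coding genes held 10720 genes, of which the main fit had called 37 higher and 60 lower, so its 90 calls are to be read against these. Leaving out 1 library gave 30 (without Ado KO 2-1) to 434 (without Ado KO 2-2). Of those 65 genes, 17 lost no call when 1 library was left out, and 7 lost none when 1 guide population was left out.

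The replicate block left 139 calls; replicate numbers share only a number, with correlations of -0.0917 to 0.0919 between deviations of same-numbered libraries.

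At 6 h the 135 calls became 324 (fixed terms), 58 (no trend), 216 (array weights), 39 (protein-coding), 322 without control guide 2, 37 and 31 without Ado KO guide 1 and guide 2, and 58 to 139 without 1 library. Among protein-coding genes the main fit had called 48 higher and 18 lower at 6 h, the counts to set beside those 39. The 33 untreated calls became 132 (fixed terms), 6 (no trend), 77 (array weights), 139 without control guide 2, 3 without Ado KO guide 2, and 11 to 35 without 1 library. The 170 calls between control guides became 3 on the 8 libraries only, 44 with no trend, 54 with array weights, and 18 to 1558 without 1 library. Calls between Ado guides were 0 to 192 without 1 library. Calls for the TNF response were 0 to 38 without 1 library at 1 h or untreated (the latter added after seeing the data), 7 without control guide 2, and 89 without control 1-2 and Ado KO 2-2 together. The 61 calls for 6 h against 1 h became 31 with no trend, 0 with protein-coding genes only (no snoRNA among them), 10 without control guide 1, 30 without Ado KO guide 1 and 21 without Ado KO guide 2; without 1 library at 1 h or 6 h they were 30 to 77. Beyond the smaller numbers of libraries or genes, the cause was not tested. Calls of snoRNAs (23) were 5 to 35 without 1 library, 6 and 60 without control guide 1 and 2, 5 with no trend, 52 with fixed terms and 0 on the 8 libraries only; calls of mitochondrially encoded genes (5) were 1 to 8 without 1 library and 0 with no trend or on the 8 libraries only. For genes with libraries at the bottom of the scale, such as Usp53, sizes are not defined.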
